A study of Mus musculus with 24 samples.

Results

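The integrated stress response and the unfolded protein response were followed here through 36 genes, chosen by symbol from 18740 genes listed for mouse bone marrow-derived macrophages (BMDMs), cells grown from marrow precursors. They fall into an ATF4 amino-acid arm of 22 genes and an endoplasmic reticulum (ER) chaperone arm of 14 genes. RNA-seq had been done on 24 libraries in 8 groups of 3, from C57BL/6 mice 10 weeks old that were WT or DRD5-/-, the latter made by CRISPR-Cas9 and lacking the dopamine receptor DRD5 in every cell. Both genotypes were left untreated or given dopamine (DA), a neurotransmitter, and all cells were stimulated for 12 h, so that no group is without a stimulus. In 12 libraries the stimulus was LPS at 100 ng/ml with IFN-γ at 50 ng/ml (M1), and in the other 12 it was IL-4 at 10 ng/ml with IL-13 at 10 ng/ml (M2). The labels give no dose of DA. The comparisons ask how DA alters these genes in each stimulus and whether it does so without DRD5. Nothing states that the 3 libraries of a group came from separate mice or cultures, so p-values measure the spread between these libraries, which may be technical.

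Cells under many kinds of stress phosphorylate the translation factor eIF2α through kinases that sense amino-acid shortage, misfolded protein in the ER, heme shortage or double-stranded RNA. General translation then slows while translation of Atf4 mRNA increases, and ATF4 induces genes for amino-acid synthesis and import, tRNA charging and its own feedback inhibitors. Misfolded protein in the ER lumen also activates IRE1 and ATF6, which act through spliced XBP1 and cleaved ATF6 to induce chaperones, disulfide isomerases and degradation factors. In macrophages these pathways are known for their links to cytokine production and secretory load. Neither eIF2α phosphorylation nor Xbp1 splicing is visible in gene-level RNA values.

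The arms are known for different promoter elements, so a few promoter stretches are shown before the values. RefSeq promoter windows on GRCm38.p6, from 250 bases before to 50 bases after each start site, were found for 32 of the 36 genes. Both strands were searched for the C/EBP-ATF response element TGATGNAA, bound by ATF4 dimers, and for the ER stress response element, CCAAT and CCACG with 9 unspecified bases between them, bound by ATF6 with NF-Y. The first was in the windows of 7 of 20 ATF4 arm genes (Aars, Asns, Atf3, Chac1, Gars, Trib3 and Vldlr) and 1 of 12 ER arm genes (Herpud1), while 3.97% of all 32851 windows held it. The second was in none of the 20 ATF4 arm genes and in 5 of 12 ER arm genes (Hspa5, Hsp90b1, Calr, Pdia6 and Creld2), against 0.119% of all windows. The unfolded protein response element TGACGTGG was in no member window and in 0.676% of all windows, and the cAMP response element TGACGTCA was in that of Ppp1r15a and in 1.79% of all. No match to one of these patterns overlapped a match to another among the members. A match describes letters and is not evidence of binding. The Aars stretch shown belongs to a start site inside the gene, which spans chr8:111027778-111055569. The lines below give 3 ATF4 arm genes whose DA responses are described first and 3 ER arm genes set against them, the chaperone genes Hspa5 and Calr and the lumenal stress gene Creld2, 5′ to 3′ on the gene's strand, with the match, read on either strand, in capitals.
Asns, chr6:7693210-7693257, minus strand: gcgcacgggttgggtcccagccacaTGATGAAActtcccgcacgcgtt
Chac1, chr2:119351024-119351081, plus strand: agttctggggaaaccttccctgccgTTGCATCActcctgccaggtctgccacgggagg
Aars, chr8:111033705-111033762, plus strand: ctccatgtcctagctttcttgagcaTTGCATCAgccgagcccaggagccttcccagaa
Hspa5, chr2:34772000-34772068, plus strand: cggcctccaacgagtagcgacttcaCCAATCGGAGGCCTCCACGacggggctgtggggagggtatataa
Calr, chr8:84847050-84847118, minus strand: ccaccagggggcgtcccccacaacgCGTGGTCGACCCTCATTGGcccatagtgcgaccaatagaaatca
Creld2, chr15:88819495-88819563, plus strand: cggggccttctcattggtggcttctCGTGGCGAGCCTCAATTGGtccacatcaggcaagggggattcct

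Expression is given in FPKM as the authors deposited it, a read level divided by gene length and by the reads of the library. Fold changes are on the log2(FPKM + 1) scale, which understates the change of genes near 1 FPKM. A gene was counted as changed at an adjusted p under 0.001 (limma, Benjamini-Hochberg over all genes tested) with a change of at least 1.2-fold, the cutoffs the study used. The test covered every gene that reached 1 FPKM in 3 or more libraries of its stimulus, 10040 genes for M1 and 10735 for M2. All 36 members were tested in M1 and 35 in M2, where Vldlr, a lipoprotein receptor, stayed below 1 FPKM at 0.07 to 0.20. Vldlr in M1 and Chac1 and Trib3 in M2 were tested only because their DA-treated WT libraries reached 1 FPKM, so their counts below partly follow from the filter.

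The libraries of a group resembled each other closely, with Pearson's r across genes of 0.998 to 0.999, and read depth cannot be recovered from FPKM. Drd5 itself was no check of genotype, since it is not listed in the M1 files and in M2 was 0 in 10 of 12 libraries, with 0.06 and 0.03 FPKM in 1 untreated and 1 DA-treated WT library. All 8 macrophage markers were above 1 FPKM in every group. The summed macrophage markers were 10719 to 10890 FPKM in untreated and 8349 to 8388 in DA-treated M2 WT libraries, and 6 stromal markers summed to 127 to 129 and 104 to 105. In M1, 7 neutrophil markers summed to 37.3 to 47.2 FPKM in untreated WT, 57.7 to 70.7 in DA-treated WT and 14.6 to 19.9 in the DRD5-/- libraries. T cell markers summed to at most 1.32 FPKM in M1 and 6.66 in M2. The part of these differences in the results below was not tested, and in bulk RNA fewer cells of a type and less RNA per cell cannot be told apart.

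In M2 WT BMDMs, DA was accompanied by higher expression of nearly the whole ATF4 arm and by changes in both directions in the ER arm. Of 35 members tested, 25 were higher and 5 lower with DA, while 46.3% of all genes tested changed (25.9% higher and 20.4% lower). In the ATF4 arm 19 rose and 2 fell among the 21 tested, with a median log2 fold change of 0.89. In the ER arm 6 rose, 3 fell and 5 did not pass the test, with a median of 0.014, beside 0.031 for all genes. FPKM ranges of treated and untreated libraries did not overlap for 32 of the 35 members and for 76% of all genes.

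**Figure D1:**
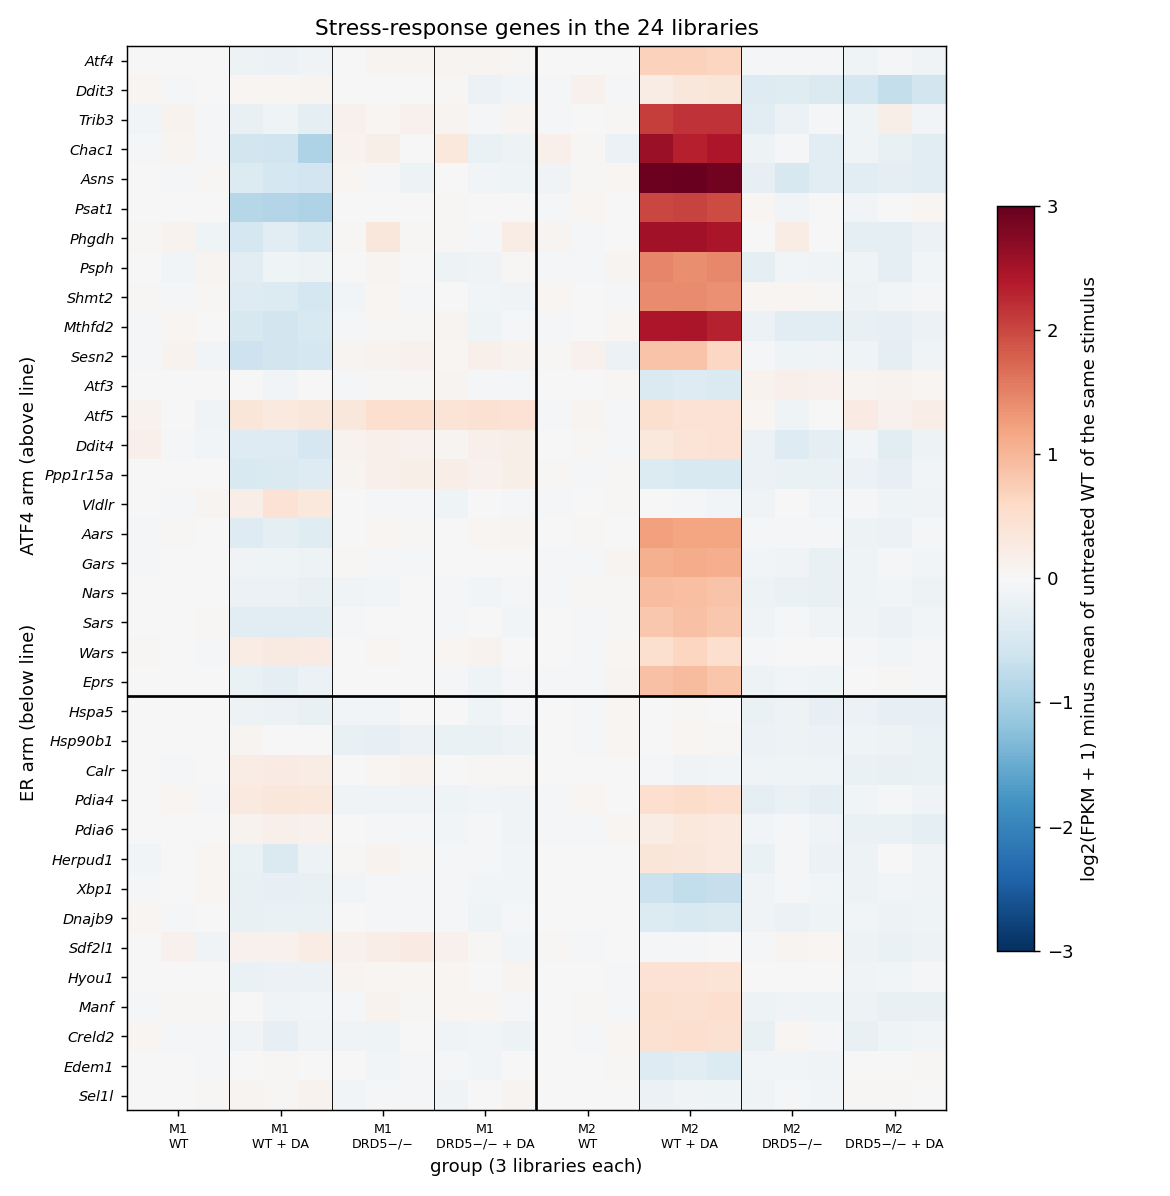
Log2(FPKM + 1) of each member in every library minus the mean of the untreated WT libraries of the same stimulus, with members as rows by arm, libraries as columns by group, and colour running from 3 below to 3 above. The DA-treated M2 WT columns stand out in the ATF4 arm, by up to 2.94 for the group mean of Asns, while the DRD5-/- columns are paler in both stimuli.

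All 6 enzymes of the arm that make amino acids and supply folate units rose, where 25.9% of all genes did. Asns rose by the most of all members on the log2 scale. Asns, which makes asparagine from aspartate, stood at 9.04, 9.99 and 10.2 FPKM in untreated M2 WT libraries and at 82.0, 82.6 and 78.6 with DA. Every treated library was thus far above every untreated library, and the FPKM ratio of the means was 8.33 (log2 fold change 2.94, SE 0.06, limma adjusted p = 1.07e-14). Phgdh catalyses the first step of serine synthesis, and its levels were 7.67, 6.81 and 7.06 FPKM untreated and 45.7, 45.9 and 43.3 with DA (2.49, SE 0.06). Psat1, the second enzyme of that route, went from 9.32, 10.1 and 9.52 to 41.4, 42.2 and 40.6 FPKM (1.99, SE 0.05). Psph, which completes it, changed by 1.44 from a mean of 5.11 to 15.5 FPKM. The treated and untreated ranges of the serine enzymes did not overlap, as for 76% of all genes. Mitochondrial Mthfd2, which handles serine-derived folate units, was at 10.2, 10.5 and 11.2 FPKM untreated and 61.0, 62.6 and 56.8 with DA (2.39, SE 0.05). Shmt2, which passes serine carbon to folate in mitochondria, changed by 1.40 from an already higher level of 24.6 to 26.9 FPKM to 67.6 to 70.5.

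Among the regulators that act downstream of ATF4, 4 of 5 rose and 1 fell, beside 25.9% and 20.4% of all genes. Chac1, a glutathione-degrading enzyme, was at 1.08, 0.94 and 0.66 FPKM untreated and 10.3, 8.43 and 9.18 with DA, a ratio of 10.4 in FPKM and 2.44 (SE 0.10) on the log2 scale. Trib3, a pseudokinase that restrains ATF4 activity, was at 0.94, 0.97 and 1.01 FPKM untreated and 7.35, 7.91 and 7.80 with DA (ratio 7.9, log2 fold change 2.14, SE 0.09). Both genes were thus near 1 FPKM in every untreated library and well above it in every treated library. They were tested only because of those treated libraries, so their share in the count of 4 partly follows from the filter. Sesn2, a leucine sensor that restrains mTORC1, rose by 0.78 (SE 0.08), from 3.22 to 4.20 FPKM to 6.25 to 7.62. Ddit4, another mTORC1 inhibitor, was at 2.01, 2.13 and 1.97 FPKM untreated and at 2.79, 3.03 and 3.07 with DA (0.38, SE 0.08, adjusted p = 0.000362). That call was lost when any of 4 single libraries was left out, WT replicate 1 or 3 or DA-treated WT replicate 2 or 3, with adjusted p of 0.00172, 0.00186, 0.00201 and 0.00217, and with no expression filter (0.00129). Ppp1r15a encodes the phosphatase subunit GADD34, which reverses eIF2α phosphorylation, and it fell by 0.44 (SE 0.04), from 24.5, 23.0 and 24.5 FPKM to 17.7, 17.2 and 17.3.

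The transcription factors changed less than the enzymes. Atf4, at chr15:80255184-80257545 on GRCm38.p6, was at 156, 154 and 152 FPKM in untreated libraries and at 249, 251 and 243 with DA (0.68, SE 0.02, adjusted p = 3.59e-12). The ranges did not overlap, as for 76% of all genes, and the level was far over that of most of its targets. Atf5, a related factor of mitochondrial and amino-acid stress, rose by 0.45 (SE 0.05), from a mean of 51.4 to 70.5 FPKM. Ddit3 encodes CHOP, a factor of prolonged stress, and stood at 25.7, 29.1 and 25.5 FPKM untreated and 31.2, 34.4 and 34.7 with DA (0.31, SE 0.06, adjusted p = 0.000309). Its call was lost without WT replicate 1 or 3 or DA-treated WT replicate 2 or 3, with adjusted p of 0.00206, 0.00195, 0.00203 and 0.00216, and also with no filter (0.00154) or under quantile normalization (0.00207). Atf3, a stress factor induced by ATF4 and by inflammatory signals, went the other way, from 278, 279 and 291 FPKM to 210.2, 216 and 209 (log2 fold change -0.415, SE 0.02).

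All 6 aminoacyl-tRNA synthetases of the arm, which load amino acids onto tRNAs, rose in M2, where 25.9% of all genes did. Aars, for alanine, went from 33.9, 34.8 and 33.6 FPKM to 81.5, 78.4 and 78.1 (1.19, SE 0.03). Gars rose by 1.09, Eprs and Nars each by 0.89 and Sars by 0.83. No treated library of these overlapped an untreated library, as for 76% of all genes. Wars, for tryptophan, which is also known as an interferon-γ target, had the smallest change, from 18.8, 17.6 and 19.1 FPKM to 26.4, 29.5 and 26.5 (0.55, SE 0.04).

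**Figure D2:**
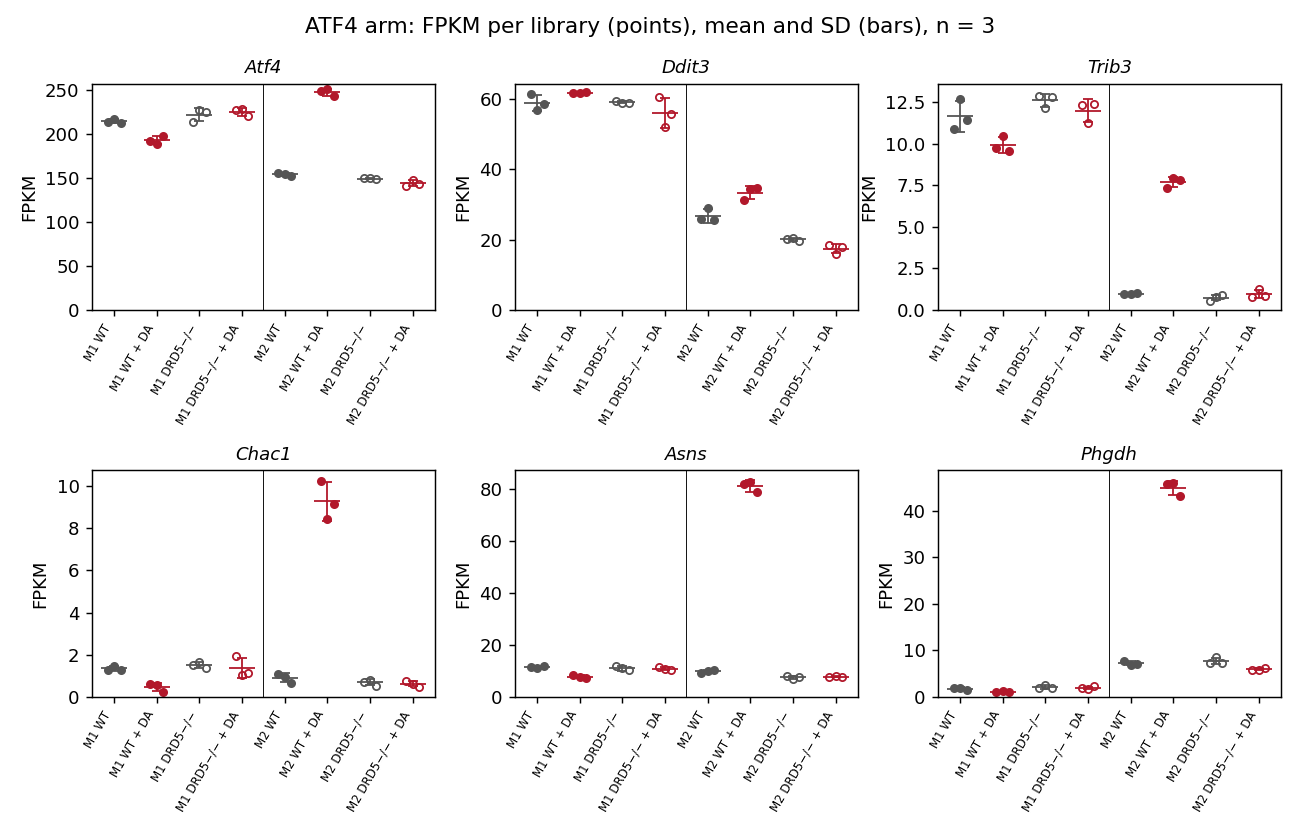
FPKM of 6 ATF4 arm genes in the 8 groups, with points for libraries and bars for the mean and SD (n = 3), and M1 groups to the left of the line. In M2 the DA-treated WT points lie above all other M2 points, as for Asns at 78.6 to 82.6 FPKM against 6.72 to 10.2, while in M1 they lie lowest for Asns at 7.35 to 8.29.

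In the ER arm of M2 WT cells the major lumenal chaperones, which hold unfolded proteins, did not pass the test. Hspa5 (BiP), the Hsp70 of the ER, was at 290, 288 and 305 FPKM untreated and 292, 299 and 296 with DA. Hsp90b1 (GRP94), its Hsp90, was at 250, 245 and 265 FPKM untreated and 249, 262 and 258 with DA, and Sdf2l1, a BiP cofactor, at 59.1, 55.8 and 57.7 and 56.3, 56.3 and 58.0. These 3 genes overlapped between groups, and their log2 differences were 0.01, 0.02 and -0.01, with limma adjusted p of 0.798, 0.589 and 0.687. Calr, a lectin chaperone for glycoproteins, differed by -0.07 at 703 to 757 FPKM, and Sel1l, an adaptor of ER-associated degradation, by -0.14, both under the fold limit.

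Disulfide isomerases and secreted stress proteins of the ER arm rose. Pdia4 went from 75.2, 80.2 and 76.9 FPKM to 110, 114 and 111 (0.52, SE 0.03), and Pdia6 from 83.3 to 89.2 to between 100.3 and 107 (0.28, SE 0.03). Manf, a secreted factor released on ER calcium loss, went from 35.3, 36.3 and 34.9 to 49.9, 49.5 and 50.4 FPKM (0.48, SE 0.03). Creld2, a lumenal stress protein, went from 20.1, 19.3 and 21.2 to 28.0, 29.3 and 27.9 FPKM (0.47, SE 0.06). No treated library overlapped an untreated library in these 4 genes, as for 76% of all genes. Hyou1, a large Hsp70 relative, rose by 0.42 and Herpud1, which recruits the degradation complex, by 0.33 (SE 0.05). The Pdia6 change fell under the fold limit, at 0.261 and 0.257, without WT replicate 2 or DA-treated WT replicate 2, and at 0.257 and 0.238 under median-of-ratios scaling and quantile normalization, and that of Herpud1 at 0.259 under the latter.

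Xbp1, Dnajb9 and Edem1 were the 3 ER arm members that fell. Xbp1, the factor whose mRNA IRE1 splices, was at 116, 118 and 116 FPKM untreated and 74.7, 69.2 and 71.6 with DA (-0.69, SE 0.03, adjusted p = 6.07e-11). Dnajb9, a BiP co-chaperone, went from 32.1, 31.8 and 31.3 to 23.8, 23.0 and 23.4 FPKM (-0.42, SE 0.03). Edem1, which marks misfolded glycoproteins for degradation, went from 50.9, 50.6 and 52.0 to 38.8, 40.6 and 38.5 FPKM (-0.37, SE 0.03). Treated and untreated libraries did not overlap in any of the 3 genes, as for 76% of all genes. Gene-level FPKM count spliced and unspliced Xbp1 together.

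**Figure D3:**
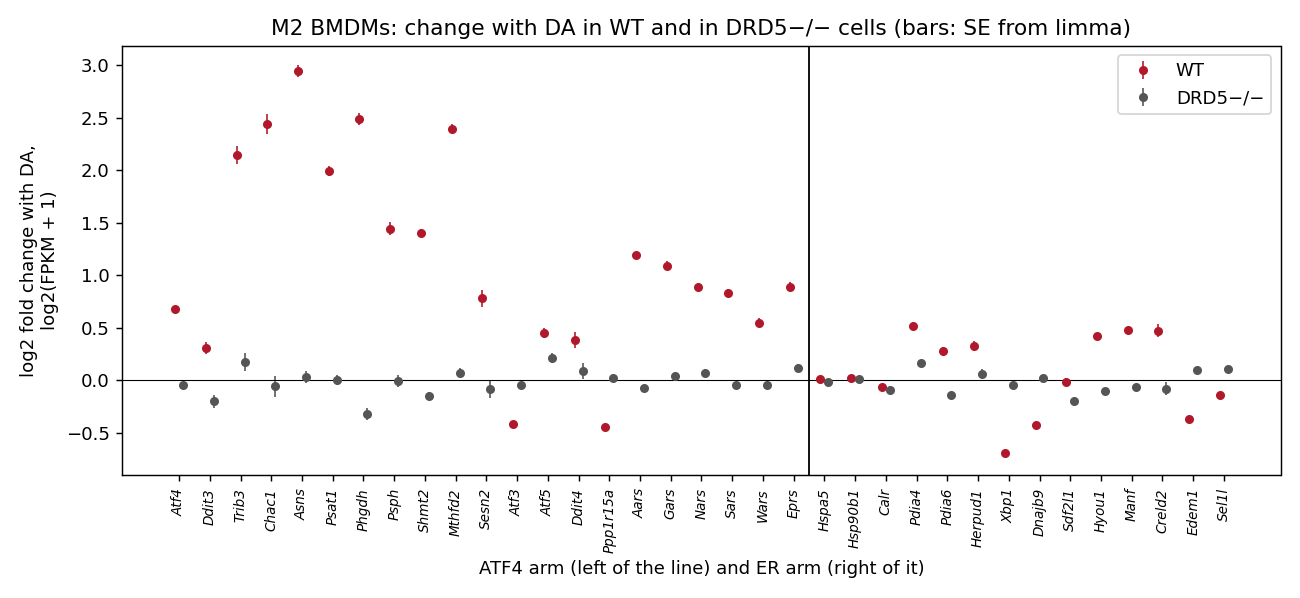
Log2 fold changes with DA in M2 BMDMs, with the standard error as bars, for each tested member in WT and in DRD5-/- cells, with the ATF4 arm left of the line and the ER arm right of it. WT values run from -0.69 for Xbp1 to 2.94 for Asns, while those in DRD5-/- cells lie between -0.32 and 0.21.

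In M1 WT BMDMs the response was smaller and mostly of opposite sign. Of the 36 members 10 fell and 2 rose with DA, while 14.3% of all genes changed (9.6% lower and 4.73% higher). All 10 that fell and Atf5, which rose, belong to the ATF4 arm, whose median was -0.27, beside -0.067 for all genes. In the ER arm only Pdia4 of 14 passed the test, and the median was -0.027. Treated and untreated ranges did not overlap for 32 of the 36 members and for 56.5% of all genes. Of the genes changed with DA in M1 WT, 33.0% were higher, and 55.6% after median-of-ratios scaling of the FPKM, which moved the median of all genes to -0.003.

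The serine enzyme gene Psat1 had the largest fall, from 59.7, 59.2 and 60.1 FPKM to 32.6, 32.0 and 31.1 (-0.88, SE 0.03, adjusted p = 6.13e-12). Asns went from 11.4, 11.0 and 11.7 FPKM to 8.29, 7.57 and 7.35 (-0.50, SE 0.06), Mthfd2 from 27.0 to 18.9 in the mean (-0.49, SE 0.05) and Shmt2 from 3.46, 3.13 and 3.4 to 2.32, 2.27 and 2.0 FPKM (-0.44, SE 0.06). Phgdh, at 1.80, 1.95 and 1.49 FPKM untreated and 0.89, 1.16 and 1.01 with DA, did not pass the test at these low levels (-0.44, SE 0.10, adjusted p = 0.00253), nor did Psph (-0.20). All 6 enzymes thus had lower means with DA, and 4 of them passed, beside 9.6% of all genes called lower.

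Of the regulators, 4 of 5 fell in M1, where 9.6% of all genes did. Sesn2 went from 15.2, 16.9 and 14.5 FPKM to 9.68, 10.3 and 10.5 (-0.56, SE 0.05), and Ddit4 from 7.62, 6.44 and 6.37 to 4.95, 4.92 and 4.52 (-0.43, SE 0.06). Ppp1r15a went from 47.0 to 48.2 to between 34.6 and 35.8 FPKM (-0.42, SE 0.03), the same sign as in M2. Chac1 went from 1.29, 1.47 and 1.27 to 0.61, 0.54 and 0.24 FPKM (-0.69, SE 0.13, adjusted p = 0.000471), a call lost without any of the 3 untreated WT libraries or DA-treated WT replicate 2 or 3, at adjusted p of 0.00121 to 0.00296, and with no filter (0.00313) or no intensity trend (0.00113). Trib3, at 10.9, 12.7 and 11.4 FPKM untreated and 9.74, 10.5 and 9.54 with DA, did not pass (-0.21).

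Of the transcription factors of the arm, only Atf5 passed the test in M1. Atf4 was at 213, 217 and 213 FPKM untreated and 192, 189 and 198 with DA. These ranges did not overlap, as for 56.5% of all genes, but the change was under the fold limit (-0.15, SE 0.03, limma adjusted p = 0.000613). Ddit3 was at 61.3, 56.8 and 58.6 FPKM untreated and 61.7, 61.8 and 62.1 with DA (0.07), and Atf3 overlapped between the groups (-0.04). Atf5 alone rose, from 16.3, 15.2 and 13.8 to 19.7, 18.7 and 19.5 FPKM (0.34, SE 0.05). Among the synthetases Aars fell by 0.35 and Sars by 0.32, while Eprs (-0.22), Nars (-0.19) and Gars (-0.12) stayed under the fold limit. The Sars change came under the fold limit at -0.250 after median-of-ratios scaling and -0.261 after quantile normalization. Wars, at 73.3, 72.6 and 70.1 FPKM untreated and 84.0, 86.4 and 85.9 with DA, stayed just under the fold limit (0.24, SE 0.03) and passed it under both scalings, at 0.318 and 0.285. Vldlr, with 0.74 to 0.90 FPKM untreated and 1.06 to 1.44 with DA, did not pass (0.31, adjusted p = 0.00383).

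Of the ER arm in M1 cells, Pdia4 rose from 32.7, 34.0 and 30.9 to 40.0, 41.2 and 41.0 FPKM (0.32, SE 0.03). Several further members differed by less than 1.2-fold with adjusted p under 0.001. Hspa5 was at 295, 294 and 295 FPKM untreated and 264, 263 and 253 with DA (-0.18), and Xbp1 at 69.2, 69.8 and 73.4 untreated and 60.8, 59.3 and 60.4 with DA (-0.23). Calr was higher in all 3 treated libraries, at 807 to 828 FPKM against 679 to 705 (0.23), and passed the fold limit after median-of-ratios scaling at 0.302. Hsp90b1, at 240.2, 235 and 241 FPKM untreated and 251, 238 and 238 with DA, and Sdf2l1, at 24.8, 27.5 and 23.3 untreated and 27.7, 27.5 and 29.5 with DA, did not pass (0.02 and 0.16). The other ER arm members differed by between -0.27 for Herpud1 and 0.13 for Pdia6, and none of them passed.

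**Figure D4:**
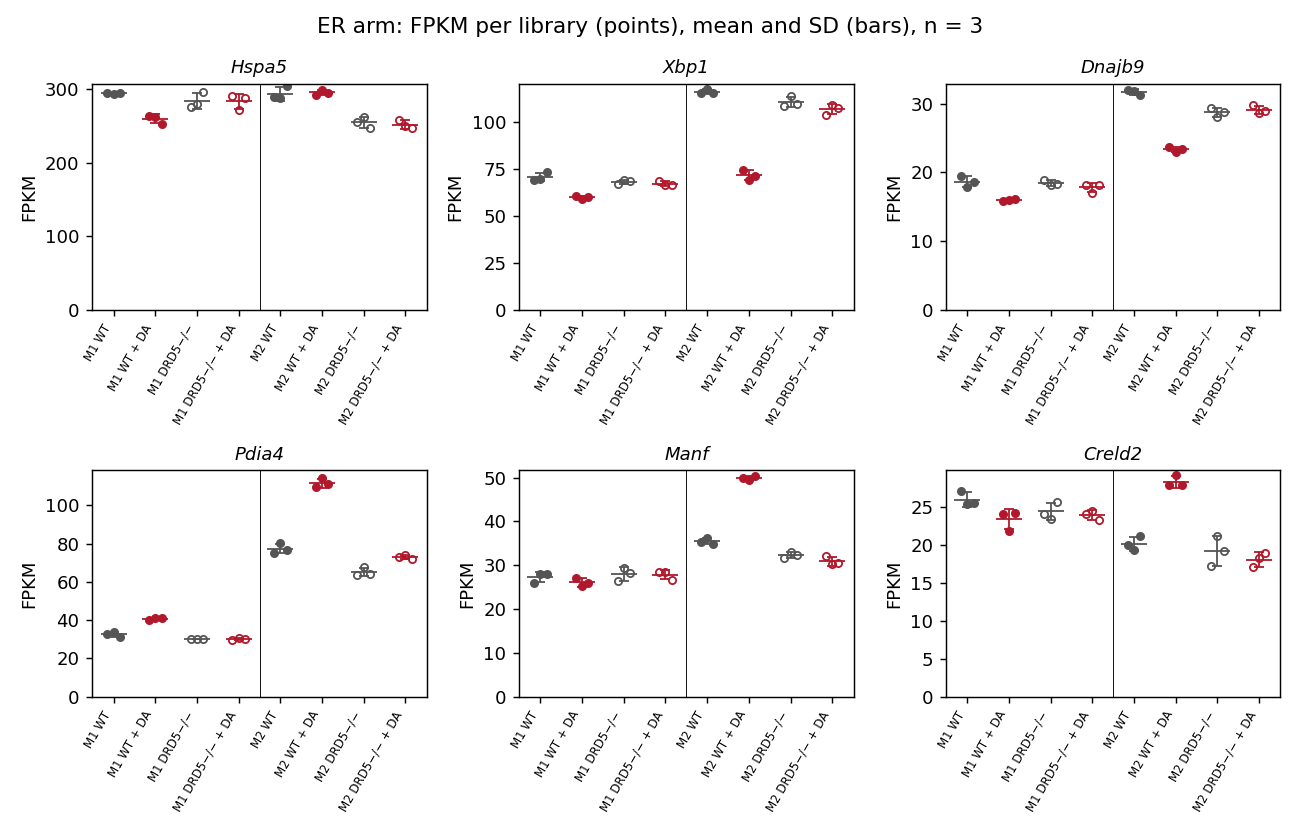
FPKM of 6 ER arm genes in the 8 groups, with points for libraries and bars for the mean and SD (n = 3), on axes from 0. Xbp1 and Dnajb9 are lowest in M2 in the DA-treated WT libraries, Pdia4, Manf and Creld2 are highest there, and Hspa5 of M2 WT stays between 288 and 305 FPKM with and without DA.

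With DA in DRD5-/- cells 1 member passed the test in M2 and none in M1. In M1 none of the 36 members, and 0% of all genes tested, passed the limma test with DA, and 1 member had an unadjusted p under 0.05, as did 569 of the 10040 genes. The member log2 differences ran from -0.16 to 0.06. Psat1, for example, was at 59.2, 58.9 and 59.2 FPKM untreated and at 60.9, 59.6 and 59.5 with DA. In M2 1 of 35 members passed, against 4.02% of all genes (3.37% higher and 0.652% lower), namely Phgdh, which fell from 7.30, 8.47 and 7.19 to 5.74, 5.82 and 6.2 FPKM (-0.32, SE 0.06, adjusted p = 0.000992). An unadjusted p under 0.05 was found for 15 of the 35 members and for 4570 of the 10735 genes in M2, Sdf2l1 (-0.20) and Pdia4 (0.16) among the former. Of the genes called in M2 83.8% were higher, and 69.8% under median-of-ratios scaling. The Phgdh call was lost when any of 11 of the 12 M2 libraries was left out, with M2 WT replicate 1 the exception. Asns in M2 DRD5-/- cells was at 8.06, 6.72 and 7.57 FPKM untreated and 7.54, 7.83 and 7.44 with DA, and Chac1 at 0.52 to 0.80 and 0.48 to 0.72.

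The difference of DA effects between genotypes, the WT effect minus the DRD5-/- effect, was tested directly. In M2 it passed for 27 of 35 members, 22 with the higher value in WT and 5 with the lower, where 43.2% of all genes passed (22.8% higher and 20.4% lower). Of these 19 were in the ATF4 arm and 8 in the ER arm, with values from 2.91 for Asns and 2.81 for Phgdh to -0.64 for Xbp1. The ATF4 arm members that did not pass were Ddit4 (0.30, SE 0.11, adjusted p = 0.0231) and Atf5 (0.23, SE 0.07, adjusted p = 0.00594). In M1 it passed for 8 of 36 members, against 8.38% of all genes (5.18% lower and 3.2% higher). Asns, Psat1, Mthfd2, Sesn2, Ppp1r15a, Aars and Sars were lower and Pdia4 higher, with Psat1 largest at -0.90 (SE 0.04). Among all genes called in this M1 difference 38.2% were higher, but 63.9% under median-of-ratios scaling and 56.4% under quantile normalization, where the members were 5 lower and 3 higher and 5 lower and 1 higher. For Chac1 in M1 the difference was -0.58 (SE 0.18, adjusted p = 0.0249) and for Shmt2 -0.40 (SE 0.09, adjusted p = 0.00374), so a difference between genotypes did not pass the test for these genes.

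Few members passed the test between the genotypes without DA, although smaller differences were common in M2. In M1 only Atf5 passed the test, at 16.3, 15.2 and 13.8 FPKM in WT and 19.3, 21.6 and 21.2 in DRD5-/- libraries (0.43, SE 0.05). Of all genes 0.936% changed and 0.727% were higher. The Atf5 call was lost without DRD5-/- replicate 2 or 3. Hsp90b1, at 235 to 241 FPKM in WT and 201 to 212 in DRD5-/- libraries, stayed under the fold limit (-0.21, SE 0.03, limma adjusted p = 0.000359). With DA in both genotypes its M1 difference was -0.20. Neutrophil markers differed between these groups, as given above. In M2 Ddit3, at 25.7, 29.1 and 25.5 against 20.2, 20.5 and 19.7 FPKM (-0.39, SE 0.06), Asns (-0.35, SE 0.06) and Mthfd2 (-0.28, SE 0.05) were lower in DRD5-/- libraries, 3 of 35 members beside 5.51% of all genes (4.15% lower and 1.37% higher). None of these 3 calls was left without WT replicate 2 or without DRD5-/- replicate 2 or 3, and only Ddit3 without WT replicate 3. The Mthfd2 call was also lost without any 1 DA-treated DRD5-/- library, without WT replicate 1 or without DA-treated WT replicate 1 or 2, and the Ddit3 call without DRD5-/- replicate 1. Pdia4 (-0.24), which stood under the fold limit, was the 1 member called without DRD5-/- replicate 2. Hspa5 (-0.20) and Nars (-0.19) were also lower in DRD5-/- libraries with limma adjusted p under 0.001, but stayed under the fold limit. Only Hyou1 (0.01), Sdf2l1 (0.03), Shmt2 (0.04), Phgdh (0.08) and Atf3 (0.13) had differences above 0 in M2, where the median of all genes was -0.033. Stromal markers summed to 127 to 129 FPKM in WT and 80.1 to 82.2 in DRD5-/- libraries, and T cell markers to 3.88 to 4.45 and 6.59 to 6.66, and their part in these calls was not tested. Of all genes called between these groups 24.8% were higher, and 40.1% under median-of-ratios scaling and 35.8% under quantile normalization. Asns was at 8.06, 6.72 and 7.57 FPKM in DRD5-/- libraries and Mthfd2 at 9.23, 8.26 and 8.22. All 3 genes were lower in every DRD5-/- library than in any WT library, and the ranges of these groups did not overlap for 39.5% of all genes. With DA on both sides the genotypes differed in 29 of 35 members in M2, 24 lower and 5 higher in DRD5-/- cells (49.7% of all genes changed, 29.2% lower and 20.4% higher), and in 13 of 36 in M1, 11 higher and 2 lower (18.5% of all, 12.6% higher and 5.95% lower). The M1 balance depended on scaling, with 67.9% of the genes called higher as deposited and 47.5% under median-of-ratios scaling, where 9 members were higher and 4 lower, and 50.5% under quantile normalization, where 9 were higher and 2 lower. These comparisons share libraries with the DA effects in each genotype.

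Other genes of the pathway were read from 4 further lists, chosen with earlier results of these data known. Among 23 stress sensors and eIF2 regulators, DA in WT was followed by 10 higher and 2 lower in M2 and by 1 higher and 7 lower in M1, the M1 count falling to 1 higher and 2 lower under median-of-ratios scaling. These shares, 12 and 8 of 23, stand beside 46.3% and 14.3% of all genes. The amino-acid kinase gene Eif2ak4 (GCN2) rose in M2, from a mean of 3.53 to 5.22 FPKM (0.46, SE 0.05), against -0.16 in M1. The ER kinase Eif2ak3 (PERK) differed by -0.23 in M2 and -0.03 in M1, Ern1 (IRE1) by -0.10 and 0.09, and Atf6 by 0.04 (SE 0.03) and -0.04, and none of these passed. Eif2ak1, the heme-regulated kinase, fell in M2 by 0.64 and Impact, an inhibitor of GCN2, by 0.81. The exchange factor subunit gene Eif2b3 rose by 0.995 (SE 0.06) and the eIF2β gene Eif2s2 by 0.93 in M2. In M1 Eif2s2 fell by 0.36, the exchange factor genes Eif2b1 by 0.47 and Eif2b4 by 0.42, and the adaptor gene Nck2 rose by 0.34. The Eif2b1 call was lost under median-of-ratios scaling and quantile normalization, at adjusted p of 0.00105 and 0.00111, and that of Eif2b4 under the latter at 0.001.

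Of 23 further known ATF4 targets tested in M2, 16 rose and 3 fell, with a median of 0.60, whereas in M1 1 of 21 rose and 1 fell, beside 46.3% and 14.3% of all genes changed. Slc7a5, the large neutral amino-acid transporter, rose in M2 from 2.03 to 23.6 FPKM in the mean (3.02, SE 0.07), and Slc7a1, an arginine transporter, from 3.85 to 22.1 (2.26, SE 0.04). Aldh18a1 of proline synthesis rose by 1.83 and Pck2, mitochondrial PEP carboxykinase, by 1.42. The cystine transporter Slc7a11, by contrast, rose in M1 from a mean of 10.6 to 15.4 FPKM (0.49, SE 0.05), while the folate enzyme Mthfd1l fell there by 0.29, a call lost under median-of-ratios scaling (-0.222) and quantile normalization (-0.228).

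Of 14 other cytosolic aminoacyl-tRNA synthetases 13 rose in M2, with a median of 0.90, and 7 fell in M1, 4 under median-of-ratios scaling, where 46.3% and 14.3% of all genes changed. Iars rose from 21.2 to 59.5 FPKM in the mean in M2 (1.44, SE 0.03) and fell in M1 (-0.34, SE 0.05), and Vars rose by 1.17 and fell by 0.46. Yars rose by 1.22 and Lars by 1.15 in M2, and Farsa fell by 0.38, Rars by 0.36 and Farsb by 0.35 in M1, where the Farsb call was lost under both scalings at adjusted p of 0.00112 and 0.0014. Among 40 other ER folding and degradation genes tested in M2, 7 rose and 4 fell, with a median of 0.013, and among 37 in M1 2 fell, both smaller shares than the 46.3% and 14.3% of all genes that changed. The oxidase gene Ero1lb fell in M2 by 0.76 and the mannosidase-like Edem2 by 0.51, while Ssr1 of the translocon rose by 0.53 and the disulfide isomerase gene Txndc5 by 0.42. Selenos and Txndc11, both of ER-associated protein handling, each fell in M1 by 0.30, and both calls were lost under median-of-ratios scaling, at -0.233 and -0.239, and under quantile normalization, at -0.238 for each.

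The M1 and M2 responses of WT cells were set against each other in a single fit of all 24 libraries over 9620 genes. The DA effect in M1 minus that in M2 passed the test for 25 of 35 members, 21 lower and 4 higher, where 47.4% of all genes passed (29.3% lower and 18% higher). Of the genes called 38.1% were higher, and 52.1% under quantile normalization, where 21 members were lower and 5 higher. In the ATF4 arm 17 members were lower and 1, Atf3 (0.38, SE 0.04), was higher. Asns differed by -3.44 (SE 0.08), Chac1 by -3.13 (SE 0.17), Phgdh by -2.93, Mthfd2 by -2.89 and Psat1 by -2.88. Ppp1r15a, which fell in both stimuli, differed by 0.02 (SE 0.05), and neither Ddit3 (-0.24) nor Atf5 (-0.11) passed. Of the ER arm, Creld2, Hyou1, Herpud1 and Manf were lower by 0.62 to 0.55, and Xbp1 (0.46), Edem1 (0.38, SE 0.04) and Calr (0.30) were higher.

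**Figure D5:**
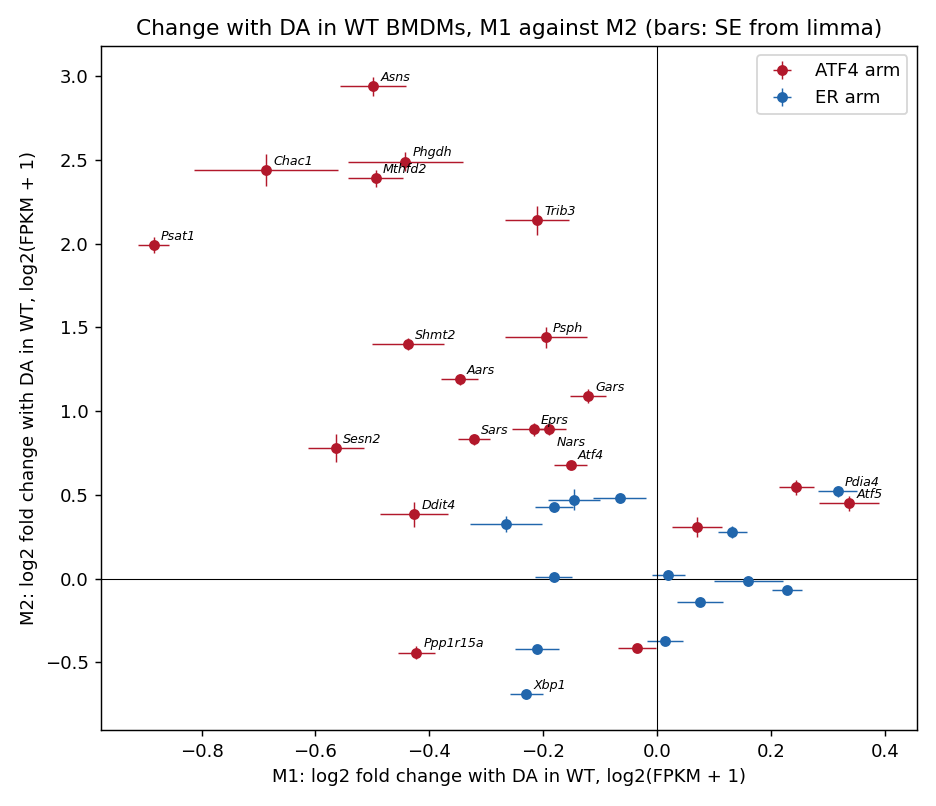
Log2 fold change with DA in WT BMDMs in M1 (horizontal) against M2 (vertical) for the 35 members tested in both stimuli, coloured by arm, with the limma standard error as bars and lines at 0. Most ATF4 arm genes lie above 0 in M2 and below 0 in M1, as Psat1 does at -0.88 and 1.99, and the ER arm genes run from -0.69 to 0.52 in M2 and from -0.27 to 0.32 in M1.

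Levels before DA differed between the stimuli, but the M1 and M2 files list different genes, so they are given side by side without a test. Cell type markers differed as well. The 6 stromal markers summed to 4.37 to 4.91 FPKM in untreated M1 WT libraries and to 127 to 129 in untreated M2 WT libraries. The 7 neutrophil markers summed to 37.3 to 47.2 FPKM in untreated M1 WT libraries. The 5 of them listed in M2 summed to at most 1.51 in any M2 library. The part of these marker differences in the levels below was not tested. In untreated WT cells 15 of 22 ATF4 arm genes had the higher mean in M1, 8 of them by at least 2-fold, and 7 had the higher mean in M2, 3 by at least 2-fold. Trib3 was at 11.7 FPKM in M1 and 0.973 in M2, Psat1 at 59.6 and 9.64, and Sesn2 at 15.5 and 3.76. Shmt2, by contrast, was at 3.33 FPKM in M1 and 25.7 in M2, and Phgdh at 1.75 and 7.18. Of the ER arm, 12 of 14 genes had the higher mean in M2, 3 of them, Pdia4, Herpud1 and Sdf2l1, by at least 2-fold, and Creld2 had the higher mean in M1. The shares of all genes higher in M1 or in M2 were not counted, so these counts may be no different from those of other genes. Hspa5 was at 295 FPKM in M1 and 294 in M2. Within the arms, per length, Atf3 and Atf4 were the most abundant ATF4 arm genes in untreated WT cells of both stimuli, at 493 and 214 FPKM in M1, and Calr, at 695 in M1 and 752 in M2, was the most abundant of the ER arm.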

How the data were processed

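Per the labels and the study's methods, the authors used a BGISEQ-500 sequencer, aligned filtered reads to the mouse genome with HISAT2, counted them per gene and converted the counts to FPKM. The submitters' processing notes also name Bowtie2 2.2.5, with no role, and the build GRCm38.p6. The authors deposited FPKM with 2 decimals for each library and no counts, so the depth and counting error are unknown. The growth protocol names the colon as the source of the cells, whereas the tissue label and the methods name bone.

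FPKM were used as deposited. For each stimulus, limma 3.58.1 (R 4.3.3) was fitted to log2(FPKM + 1), with 4 group means and an intensity trend, on genes with at least 1 FPKM in at least 3 of 12 libraries, with Benjamini-Hochberg adjustment. A single fit over all 24 libraries served only the M1 against M2 difference of DA effects. The fits were run on simulated data with normal noise and genes of known change. These had no difference of scaling between groups, so the run cannot show how the fits deal with one. The members and lists were chosen with earlier results of these data known. Every member is accounted for. Library values are given for Atf4, Ddit3, Trib3, Chac1, Asns, Psat1, Ddit4, Wars, Hspa5, Hsp90b1, Xbp1 and Sdf2l1, and for the 3 largest changes each way with DA in WT per stimulus and arm, the 3 largest with DA in DRD5-/- cells and the 3 largest between untreated genotypes. Of the other lists, up to 4 genes of largest change per stimulus and the sensors are named. The few further genes named were chosen after their values were seen. Gene positions and promoters are from RefSeq. Alternatives were median-of-ratios scaling, no filter, quantile normalization, no trend, a pseudocount of 0.1, a replicate block, the compared groups alone, other cutoffs and leaving out each library.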

Additional observations from a re-analysis of the deposited data

Results flagged for a closer look

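The values here are differences between 2 DA effects on the log2 scale that passed the limma test of the difference itself. Their direction is the WT effect minus the DRD5-/- effect, or the M1 effect minus the M2 effect in WT. No explanation for them was tested.

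In M1 the WT effect differed from the DRD5-/- effect by -0.90 for Psat1, -0.56 for Sesn2, -0.49 for Asns, -0.46 for Mthfd2, -0.45 for Ppp1r15a, -0.37 for Aars and -0.30 for Sars, and by 0.32 for Pdia4. Fewer members passed as lower under median-of-ratios scaling and under quantile normalization, as given above.

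In M2 the differences between genotypes in the amino-acid and folate enzymes were 2.91 for Asns, 2.81 for Phgdh, 2.33 for Mthfd2, 1.99 for Psat1, 1.55 for Shmt2 and 1.44 for Psph. The regulators Chac1 and Trib3 were at 2.50 and 1.96, with Sesn2 at 0.86 and Ppp1r15a at -0.47. The transcription factors stood at 0.73 for Atf4, 0.51 for Ddit3 and -0.37 for Atf3. The synthetases ranged from 1.27 for Aars and 1.05 for Gars through 0.88 for Sars, 0.82 for Nars and 0.78 for Eprs to 0.59 for Wars. In the ER arm the values were 0.55 for Creld2, 0.54 for Manf, 0.52 for Hyou1, 0.42 for Pdia6, 0.36 for Pdia4, -0.44 for Dnajb9, -0.47 for Edem1 and -0.64 for Xbp1.

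Between the stimuli the enzymes differed by -3.44 for Asns, -2.93 for Phgdh, -2.89 for Mthfd2, -2.88 for Psat1, -1.84 for Shmt2 and -1.63 for Psph. Chac1 stood at -3.13, Trib3 at -2.35, Sesn2 at -1.34, Atf4 at -0.83, Ddit4 at -0.81 and Atf3 at 0.38. The synthetases ranged from -1.54 for Aars through -1.21 for Gars, -1.15 for Sars, -1.11 for Eprs and -1.08 for Nars to -0.30 for Wars. For the ER arm the values were -0.62 for Creld2, -0.61 for Hyou1, -0.59 for Herpud1, -0.55 for Manf, 0.30 for Calr, 0.38 for Edem1 and 0.46 for Xbp1.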

How the results depend on the processing

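Raising the fold limit to 2 left 10 of the 30 members changed with DA in M2 WT, 11 of 29 between genotypes with DA and 10 of 27 for the difference of DA effects in M2, all in the ATF4 arm, and 14 of 25 for the M1 against M2 difference. It left 0 for each M1 comparison, for DA in M2 DRD5-/- cells and for untreated M2 genotypes. An adjusted p limit of 0.05 gave 14 in place of 8 for the difference of DA effects in M1. The share of all genes past these other limits was not counted, so these counts of members have no background beside them. The single M1 change between untreated genotypes was 0 without the filter, without the trend and with the compared groups alone. The single change with DA in M2 DRD5-/- cells was 0 in these 3 settings. The 3 changes between untreated M2 genotypes were 0 without filter or trend and 1 under median-of-ratios scaling, under quantile normalization and with the compared groups alone. Leaving out 1 library at a time gave 0 to 1, 0 to 1 and 0 to 3 for these 3 comparisons. The cause of each was not tested, apart from the higher limit itself.

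Libraries of the same replicate number did not deviate together, with residual correlations averaging -0.0208 in M1 and -0.016 in M2, so the numbers were not read as pairs. With the replicate block the untreated M2 genotypes differed in 1 member and DA in M2 DRD5-/- cells in 0, and no other count of members moved by over 1.5 times.

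Of 684 single-gene values for DA in WT in M1, 668 kept their direction and call, and of 665 in M2, 641 did. Direction turned only for genes near 0. In M1 these were Atf3 (0.0387) and Manf (0.00592) under median-of-ratios scaling, Hsp90b1 (-0.0064) without DA-treated replicate 1 and Edem1 (-0.00241) without WT replicate 3, with up to 0.0324 and 0.0217 when another library was left out. In M2 Hspa5 was at -0.0137 and Hsp90b1 at -0.00347 under that scaling, and Hsp90b1 at -0.00426 under quantile normalization. With 1 M2 library left out, Hspa5 ran from -0.0069 to 0.0347, Hsp90b1 from -0.00556 to 0.0532 and Sdf2l1 from -0.0362 to 0.00401. Without counts, precision rests on 3 libraries a group, and in M1 the low genes Chac1 and Phgdh had the largest standard errors among the members, 0.126 and 0.101.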
